A study of Homo sapiens with 12 samples.

Results

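The 9 genes described here encode the partners of the 2 gene fusions known in K562 cells and the proteins that relay or restrain the signal of the fusion kinase. They are BCR and ABL1, NUP214, the adaptors CRKL, GAB2, GRB2 and SHC1, the ubiquitin ligase CBL and the SRC-family kinase LYN. They were chosen by symbol from a table of 28278 genes, with earlier results of these data known. All 9 were among the 15805 genes with enough counts to be tested. K562 is a human erythroleukaemia line that makes fetal globins and can be pushed towards red cell differentiation by sodium butyrate, an inhibitor of histone deacetylases. The series compared unedited cells (WT) with cells whose HRG1 gene had been knocked out (KO). HRG1, listed under the symbol SLC48A1, encodes a transporter that moves heme out of endosomes and lysosomes. Each genotype was left untreated or given 0.75 mM sodium butyrate, first 24 h after plating with a repeat dose 48 h later, and RNA was taken 6 h after the repeat. The design text places the libraries at day 8 of differentiation. These 4 groups, untreated WT, treated WT, untreated KO and treated KO, held 3 libraries each and carried no other stated allele or agent. The sources used here do not say how the knockout was made, how many clones it covered or whether replicates were separate cultures, so p-values measure the spread between these libraries only.

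The BCR-ABL1 fusion joins the front of BCR, which lets the protein assemble into oligomers, to the kinase part of ABL1, and the joined kinase is active without a signal from outside. GRB2 binds a phosphorylated tyrosine in the BCR part and brings in SOS, which loads RAS, and GAB2, which brings in PI3-kinase. CRKL binds the ABL1 part and is one of the main substrates of the fusion kinase, SHC1 is a further adaptor towards GRB2, and CBL attaches ubiquitin to active tyrosine kinases. LYN phosphorylates the fusion and its adaptors in myeloid cells. K562 cells also carry a fusion of NUP214, a nuclear pore protein whose gene lies near ABL1 on chromosome 9, with XKR3 on chromosome 22.

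The BCR-ABL1 transcript of K562 is known to join BCR exon 14 to ABL1 exon 2, and the sequences on either side of that join are shown because they set which reads of each gene could come from the fusion. Both were read from GENCODE v29 transcripts on GRCh38, on the plus strand, with the 15 bases next to the join in capitals. The first is the end of BCR exon 14 (chr22:23290369-23290413) and the second the start of ABL1 exon 2 (chr9:130854064-130854108).
BCR exon 14, end: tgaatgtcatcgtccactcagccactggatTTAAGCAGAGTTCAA
ABL1 exon 2, start: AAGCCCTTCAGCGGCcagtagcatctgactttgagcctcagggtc
The fused part covers exons 1 to 14 of BCR, 3533 of the 7082 bases (49.9%) of its 23-exon transcript. It covers exons 2 to 11 of ABL1, 5306 of 5766 bases (92.0%). The table holds 1 value per gene and not per exon, so reads of the fusion and of the unfused genes cannot be told apart in the values below.

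SLC48A1 checked the genotype labels. Its level, as CPM (counts scaled to the library size, here with TMM factors), was 73.5, 82.2 and 65.4 in untreated WT and 83.8, 58.9 and 60.8 in treated WT, replicates 1, 2 and 3 in order. It was 2.94, 8.32 and 6.55 in untreated KO and 6.02, 8.0 and 10.1 in treated KO, so every KO library lay far below every WT library. Libraries held 19963594 to 30348538 counts. All 8 erythroleukaemia markers that were checked (such as GATA1 and TFRC) were present in every group. Their summed CPM ran at 5710 to 11800 in untreated WT and 15900 to 33200 in treated WT. In KO it ran at 3310 to 5980 untreated and 4140 to 5700 treated. The fetal globin genes HBG1 and HBG2 reached the highest levels (up to 11000 and 19500 CPM). The part of this difference in other results was not tested. CDKN2A, which K562 cells are known to have lost, had 0 counts in all 12 libraries. The main axis of variation separated the genotypes (53.1% of the variance). On the next axis (20.9%) treated libraries lay lower than untreated ones of the same number, and in all 4 groups replicate 1 lay highest and replicate 3 lowest. The share of counts in RNA28SN5, a ribosomal RNA gene, was likewise highest in replicate 1 of each group (2.30% to 5.63%). It was lowest in replicate 3 (0.673% to 0.93%), and its part in this axis was not tested. On that axis replicate 1 of treated WT lay at 40.9, inside the range of the untreated libraries (15.4 to 75.6), and replicate 1 of treated KO at 4.21. Results are therefore also given without the 4 libraries numbered 1 where that changes them.

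No member passed the test for butyrate, and 1 of 9, LYN, passed between the genotypes, in untreated cells. In edgeR's quasi-likelihood test with Benjamini-Hochberg adjustment over all tested genes (threshold 0.05), 0 of 9 members passed for butyrate in WT, where 2.35% of tested genes passed, and 0 of 9 for butyrate in KO, where 3.4% did. In untreated cells 1 of 9 passed between KO and WT, lower in KO, where 22.6% of tested genes passed and 10.9% passed as lower. In treated cells 0 of 9 passed, where 19% of tested genes did. The test of whether butyrate acted differently in KO and WT called 0 members and 0% of tested genes in edgeR. At an unadjusted p under 0.05 that test had 658 genes (4.16%) and no member, and DESeq2 called 86 genes. The members' median log2 fold change was 0.03 for butyrate in WT and 0.12 in KO, beside 0.02 and 0.00 over all tested genes. Between KO and WT it was -0.12 untreated and 0.03 treated, beside 0.02 and 0.00. The share of members called between genotypes was thus below the share of all genes, from 9 genes only.

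**Figure D1:**
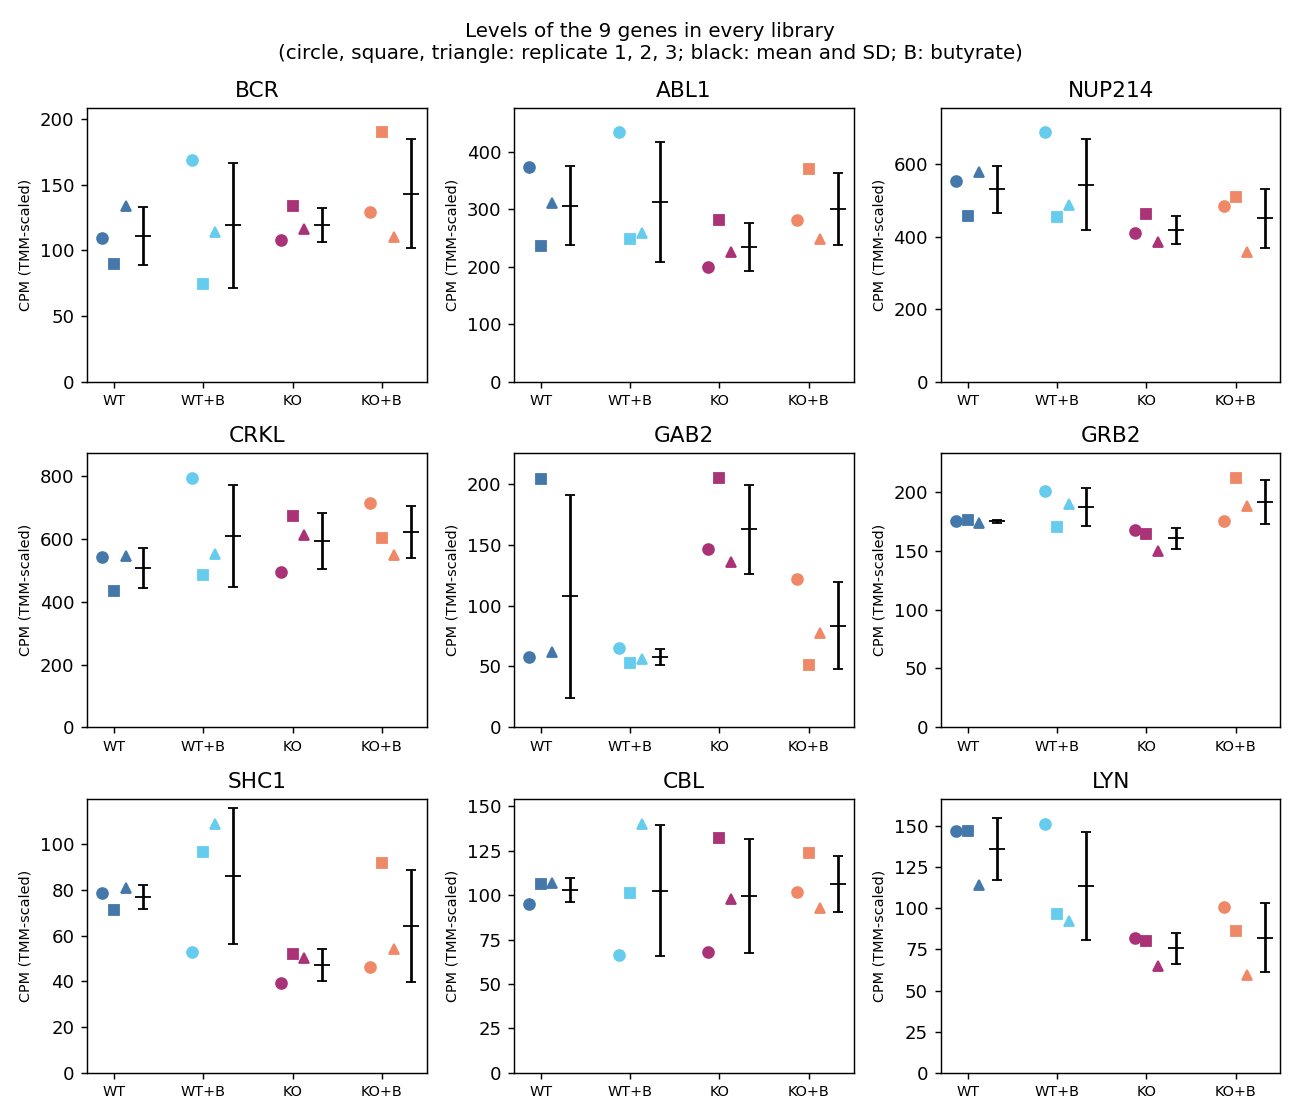
Levels of the 9 genes in every library, as CPM after TMM scaling, with symbols for replicates 1, 2 and 3, colours for the 4 groups and the mean with its SD in black (B marks butyrate). Each axis starts at 0. LYN lies lower in all 3 untreated KO libraries (64.7 to 81.9 CPM) than in all 3 untreated WT libraries (114 to 147 CPM), and 1 untreated WT library stands at 204 CPM for GAB2.

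Of the fusion partners, BCR stood at 110, 89.3 and 134 CPM in untreated WT, 169, 74.3 and 114 in treated WT, 108, 134 and 117 in untreated KO, and 129, 190 and 111 in treated KO. The 4 groups overlapped throughout. The log2 fold change of BCR was 0.10 (SE 0.290, adjusted p = 0.904) for butyrate in WT and 0.26 (adjusted p = 0.669) in KO. Between KO and WT it was 0.11 untreated (95% interval -0.523 to 0.734, adjusted p = 0.840) and 0.27 treated (adjusted p = 0.589). The untreated interval reaches from 0.696 to 1.66 of the WT level, so differences in that range remain compatible with these libraries. The BCR pseudogenes BCRP2 and BCRP3, which can share reads with BCR, together had 0.997% to 7.58% of its CPM.

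ABL1, which gives the fusion its kinase, stood at 374, 236 and 311 CPM in untreated WT, 434, 248 and 259 in treated WT, 199, 281 and 225 in untreated KO, and 282, 370 and 248 in treated KO. The groups overlapped in every comparison. The log2 fold change between untreated KO and WT was -0.38 (SE 0.266, 95% interval -0.959 to 0.192, adjusted p = 0.339). For treated KO against treated WT it was -0.06 (adjusted p = 0.907). Butyrate gave 0.03 in WT (adjusted p = 0.973) and 0.35 in KO (adjusted p = 0.50).

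The ratio of ABL1 to BCR CPM, which cancels the scaling of a library and says nothing of their levels relative to each other, was 2.79 ± 0.555 (SD, n = 3) in untreated WT and 2.72 ± 0.556 in treated WT. In KO it was 1.96 ± 0.132 untreated and 2.12 ± 0.153 treated. The 6 WT libraries spanned 2.26 to 3.40 and the 6 KO libraries 1.84 to 2.24, so the genotypes did not overlap, by a narrow gap. Of single tested genes, 42.3% did not overlap between untreated KO and WT and 33.9% between treated KO and WT. No such share was computed for ratios or over both treatments together. For the other fusion, XKR3 CPM was 3.0% to 4.22% of NUP214 CPM in the WT libraries and 1.66% to 4.35% in the KO libraries, which overlapped. This share too says nothing of their levels relative to each other. It is not corrected for the length of the exons, 1.69 kb for XKR3 and 13.06 kb for NUP214. Both ratios were looked at after the values had been seen and are given as a description, without a test.

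NUP214, the nuclear pore gene, stood at 555, 458 and 578 CPM in untreated WT and 687, 455 and 487 in treated WT. It stood at 411, 461 and 385 CPM in untreated KO and 484, 510 and 357 in treated KO. The log2 fold change between KO and WT was -0.34 untreated (SE 0.214, 95% interval -0.803 to 0.124, adjusted p = 0.291) and -0.27 treated (adjusted p = 0.435). Replicate 2 of untreated KO lay just above the lowest untreated WT library, so the groups overlapped. XKR3, its fusion partner and no member of the set, ran at 20.3, 19.3 and 17.3 CPM in untreated WT, 25.4, 14.2 and 15.3 in treated WT, 17.9, 11.5 and 10.6 in untreated KO, and 16.3, 8.46 and 10.6 in treated KO. Its log2 fold change between KO and WT was -0.51 (adjusted p = 0.294) untreated and -0.63 (adjusted p = 0.204) treated. Without the libraries numbered 1 these were -0.74 (adjusted p = 0.0477) and -0.65 (adjusted p = 0.0799). In the fit with the replicate number as a block the adjusted p was 0.0715 untreated and 0.0492 treated.

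Among the adaptors, CRKL, which binds the ABL1 part of the fusion, stood at 544, 435 and 548 CPM in untreated WT, 794, 487 and 551 in treated WT, 496, 674 and 612 in untreated KO, and 714, 604 and 551 in treated KO. Its log2 fold change was 0.26 for butyrate in WT (adjusted p = 0.593), 0.07 in KO (adjusted p = 0.909) and 0.22 between untreated KO and WT (SE 0.223, adjusted p = 0.526). GRB2, the adaptor that brings SOS to the fusion, had the smallest SE of the 9. It held 176, 176 and 173 CPM in untreated WT and 201, 170 and 190 in treated WT. In untreated KO it stood at 167, 164 and 150 CPM, below all untreated WT libraries, and in treated KO at 175, 212 and 188, above all untreated KO libraries. Both differences were small and missed the threshold: -0.12 (SE 0.153, adjusted p = 0.624) between untreated KO and WT, and 0.26 (adjusted p = 0.387) for butyrate in KO.

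GAB2, the docking protein that links GRB2 to PI3-kinase, had the largest SE. It stood at 57.4, 204 and 61.4 CPM in untreated WT and 64.8, 52.6 and 55.9 in treated WT. In KO it stood at 147, 205 and 136 CPM untreated and 122, 51.0 and 77.6 treated. Replicate 2 of untreated WT was thus at the level of the untreated KO libraries, while the other 5 WT libraries lay at 64.8 CPM or below. GAB2 gave a log2 fold change of 0.59 (SE 0.442, adjusted p = 0.378) between untreated KO and WT, which became 1.45 (adjusted p = 0.0119) without replicate 2 of untreated WT. For butyrate in WT the value of -0.90 (adjusted p = 0.318) became -0.04 (adjusted p = 0.976) without that library. For butyrate in KO the value was -0.96 (SE 0.445, adjusted p = 0.255), and all 3 treated libraries lay below all 3 untreated ones.

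SHC1, an adaptor that is itself phosphorylated and then binds GRB2, stood at 78.8, 71.0 and 80.8 CPM in untreated WT and 39.3, 52.2 and 50.1 in untreated KO. Every untreated KO library lay below every untreated WT library. In treated cells it stood at 52.7, 96.6 and 109 CPM in WT and 46.5, 92.0 and 54.3 in KO, where the groups overlapped. The log2 fold change was -0.70 (SE 0.294, 95% interval -1.34 to -0.0664, adjusted p = 0.107) untreated and -0.42 (adjusted p = 0.364) treated. With the replicate number as a block, the untreated value was -0.74 (adjusted p = 0.0294), and in a fit of the untreated libraries alone -0.71 (adjusted p = 0.0159). SHC1 shares 335 bases of exon with PYGO2 on the same strand, and reads there may be counted for either gene.

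CBL, the ubiquitin ligase, stood at 95.3, 107 and 107 CPM in untreated WT, 66.2, 101 and 140 in treated WT, 68.2, 132 and 97.6 in untreated KO, and 102, 124 and 93.0 in treated KO. The groups overlapped in all 4 comparisons, with log2 fold changes between -0.05 and 0.10. CBL shares 509 bases of exon with MCAM on the opposite strand. Whether strand was used in counting is not given in the sources used here, so reads of the pair cannot be told apart there.

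LYN fell in untreated KO. It stood at 147, 147 and 114 CPM in untreated WT and 81.9, 80.3 and 64.7 in untreated KO. In treated cells it stood at 151, 96.4 and 92.5 CPM in WT and 101, 86.2 and 59.5 in KO. All untreated KO libraries lay below all untreated WT libraries, and the treated groups overlapped through replicate 1 of KO. The log2 fold change in untreated cells was -0.85 (SE 0.245, 95% interval -1.38 to -0.316, adjusted p = 0.0253), which is 0.556 of the WT level. The two-sided exact permutation test of the 6 libraries gave p = 0.1, the smallest that 3 against 3 allows. The direction held in every fit with 1 library left out (-0.98 to -0.78), but the call was kept only without replicate 3 of untreated WT. It was lost without replicate 1 (adjusted p = 0.0749) or 2 (0.0790) of untreated WT and without replicate 1 (0.0532), 2 (0.0543) or 3 (0.0813) of untreated KO. Without the 4 libraries numbered 1 the adjusted p was 0.0187. In treated cells the value was -0.47 (SE 0.244, adjusted p = 0.217), which passed with the replicate block (adjusted p = 0.0480). Without replicate 1 of treated WT the treated value was -0.21 and without replicate 3 of treated KO -0.29.

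Of the members, 3 had untreated groups that did not overlap between genotypes, GRB2, SHC1 and LYN, all lower in KO. Over all tested genes 42.3% did not overlap in this comparison and 20.2% were lower. With the replicate number as a block, 2 of 9 members passed untreated (SHC1 and LYN), beside 33% of tested genes, and 1 of 9 treated (LYN), beside 29.2%. In treated cells 0 of 9 members and 33.9% of tested genes did not overlap. For butyrate, 0 of 9 did so in WT (21.7% of tested genes) and 2 of 9 in KO, GRB2 higher and GAB2 lower (24.4%).

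**Figure D2:**
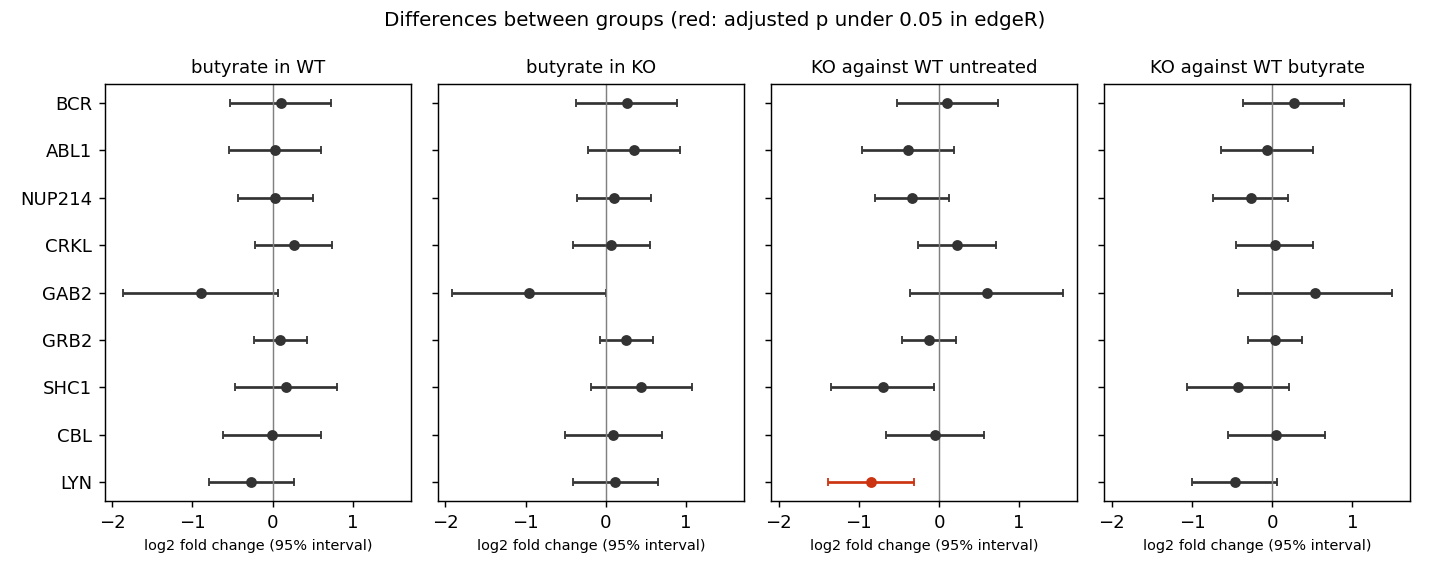
Log2 fold change of each gene with its 95% interval from the fit over all 12 libraries, in 4 comparisons, with red for an adjusted p under 0.05. LYN between untreated KO and WT (-0.85) is the only red point, and the widest intervals are those of GAB2.

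Levels of different genes were compared only after division by the length of the gene's exons (CPM per kb of the union of GENCODE v29 exons), and in untreated WT. CRKL was highest at 95.5 (81.7 to 103 over the libraries). ABL1 at 48.8 (37.5 to 59.5), NUP214 at 40.6 (35 to 44.2) and GRB2 at 37.1 (36.7 to 37.3) overlapped with their neighbours. LYN followed at 22 (18.5 to 23.8), SHC1 at 17.7 (16.4 to 18.6), and GAB2 at 15.9 (8.47 to 30.1), whose range covers several of the others. BCR at 8.96 (7.20 to 10.8) and CBL at 8.77 (8.11 to 9.12) were lowest and overlapped. In untreated KO, CRKL was again highest at 112, followed by ABL1 at 37.4, GRB2 at 34.0 and NUP214 at 32.1, whose ranges overlapped, and LYN at 12.2 overlapped with SHC1 at 10.9. On this scale BCR ran below ABL1 in every library. The union of exons is longer than any 1 transcript (12.39 kb for BCR), which lowers such a value for genes with many alternative exons.

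Within groups, BCR, ABL1, NUP214 and CRKL moved together from library to library. After removal of each group's mean, the Pearson correlation of log2 CPM over the 12 libraries was 0.84 for BCR with ABL1, 0.87 for BCR with NUP214 and 0.88 for ABL1 with NUP214. CRKL correlated with these at 0.745, 0.814 and 0.824. Replicate 1 of treated WT had the highest level of its group in all 4 genes, and replicate 2 the lowest for BCR, ABL1, NUP214 and CRKL alike. SHC1 and CBL formed another pair (0.792), and the other pairs of members ranged from -0.50 to 0.79 in all. Among these, NUP214 with LYN (0.723) and BCR with GRB2 (0.701) came near the lowest pair of the block. The block was picked from these same correlations, and no share over all pairs of tested genes was computed. The points share library, depth and scaling. The share of counts in RNA28SN5 was also highest in replicate 1 of treated WT (5.63%, against 0.673% to 4.69% in the others). Its part in the correlation was not tested.

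**Figure D3:**
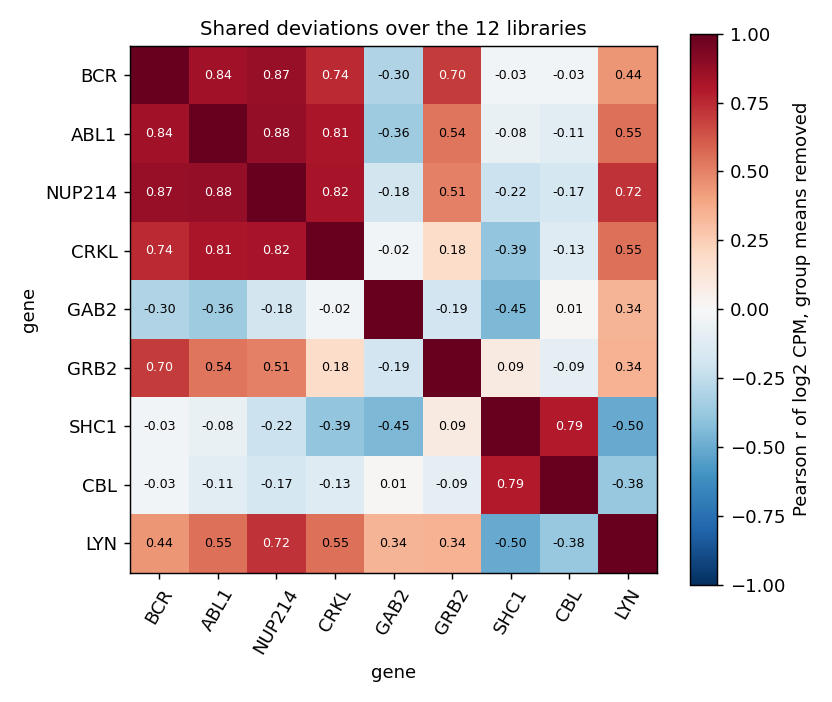
Pearson correlation of log2 CPM between members over the 12 libraries after removal of group means, red for positive and blue for negative. BCR, ABL1, NUP214 and CRKL form a block of 0.74 to 0.88, and SHC1 pairs with CBL at 0.79.

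The promoters of this block were compared because its members moved together. RefSeq windows on GRCh38.p14, the 250 bases before the gene start, were at hand for 7 of the 9 members. The CCAAT box was searched as CCAAT, the GC box as GGGCGG and the TATA box as TATAAA, each on both strands. A GC box can overlap the end of a CCAAT box read on the other strand. BCR, ABL1, NUP214 and CRKL each held 1 CCAAT box, which 32.0% of 35116 promoters hold, SHC1 held 4, and GAB2 and GRB2 held 0. The GC box, in 42.6% of all promoters, occurred 4 times in GAB2, 3 times in GRB2, 2 times in ABL1 and 1 time in BCR. The TATA box, in 10.7% of all promoters, was found in none of the 7 windows. For NUP214 (chr9:131125336-131125560, plus strand) and CRKL (chr22:20917157-20917406, plus strand) the part of the window before the first annotated exon is shown, with the CCAAT box of either strand in capitals.
NUP214: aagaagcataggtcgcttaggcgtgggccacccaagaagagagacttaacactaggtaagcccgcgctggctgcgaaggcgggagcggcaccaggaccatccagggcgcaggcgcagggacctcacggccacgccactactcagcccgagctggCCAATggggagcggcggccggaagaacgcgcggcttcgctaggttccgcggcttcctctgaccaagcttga
CRKL: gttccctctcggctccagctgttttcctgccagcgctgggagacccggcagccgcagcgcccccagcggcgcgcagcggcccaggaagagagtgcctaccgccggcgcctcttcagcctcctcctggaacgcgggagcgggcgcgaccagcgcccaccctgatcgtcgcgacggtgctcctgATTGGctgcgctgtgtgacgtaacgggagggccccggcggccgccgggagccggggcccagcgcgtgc
A match of letters is a description of the window and not a binding site.

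The genes whose log2 CPM followed the fusion partners most closely over the 12 libraries were found among all tested genes, without removal of group means. For BCR they were IP6K1 (Pearson 0.877), PPP2R2A (0.858) and TXNDC5 (0.855). For ABL1 they were SH3GL1 (0.943), SKI (0.905) and CHERP (0.890), and for NUP214 RBM27 (0.940), BAHD1 (0.928) and GORASP2 (0.923). LYN was followed by TGS1 (0.960), ORC5 (0.951) and ZEB2 (0.947). By Spearman's rank correlation, 1 of the 3 genes was kept for BCR, 0 for ABL1, 1 for NUP214 and 1 for LYN, so most of these names depend on the measure.

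Along chromosome 22, the genes on either side of BCR differed in how KO compared with WT. From XKR3 to BCR (89 tested genes, members left out), the median log2 fold change of untreated KO against WT was -0.12, with 31 genes higher and 58 lower, of which 3 and 7 passed the test. Over an equal stretch of 6535 kb beyond BCR (67 genes), the median was 0.53, with 58 higher and 9 lower, of which 14 and 0 passed, beside 11.7% of tested genes that passed as higher. In treated cells the medians were -0.02 and 0.60. The higher level ran on to the end of the chromosome: over 316 genes beyond BCR the median was 0.42 untreated, a 1.33-fold level, with 231 genes higher, and 0.53 treated. Untreated KO and WT libraries were also compared in pairs, by differences in log2 CPM with a small constant added and not by the fit. Each of the 9 pairings gave a median between 0.264 and 0.420 over these 316 genes, against -0.253 to 0.0119 from XKR3 to BCR. The first 1 Mb beyond BCR (20 genes) had a median of 0.51, while the 33 genes from CRKL to BCR had -0.12.

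BCR itself, which lies between both stretches, had 0.11, and the values do not place the change at a single gene. Of the tested genes up to 5 steps from BCR on either side, only PCAT14 and FAM230I passed between untreated KO and WT. Both lie beyond BCR and rose, by 8.72 (adjusted p = 6.65e-06) and 2.67 (adjusted p = 0.0466). Their mean levels in untreated WT were low (0.312 and 0.324 CPM). Around ABL1 no such rise over a stretch was seen. In stretches of the same length, the untreated median was -0.02 over the 94 genes before it and -0.17 over the 125 genes beyond NUP214. Of the latter, 48 were higher and 77 lower, with 5 and 13 called. Over the 128 genes from NUP214 to the end of chromosome 9, untreated libraries were paired in the same way by log2 CPM. Each of the 9 pairings gave a median between -0.299 and -0.0574, a small shift downwards. AIF1L, between ABL1 and NUP214, fell in untreated KO (-3.43, adjusted p = 0.00378). PLPP7, beyond NUP214, rose in untreated KO (2.87, adjusted p = 0.00221), from a mean of 0.274 CPM in untreated WT. The extension to the end of either chromosome and the split beyond BCR were chosen after the values were seen. Copy number was not measured here and its part in the difference was not tested.

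**Figure D4:**
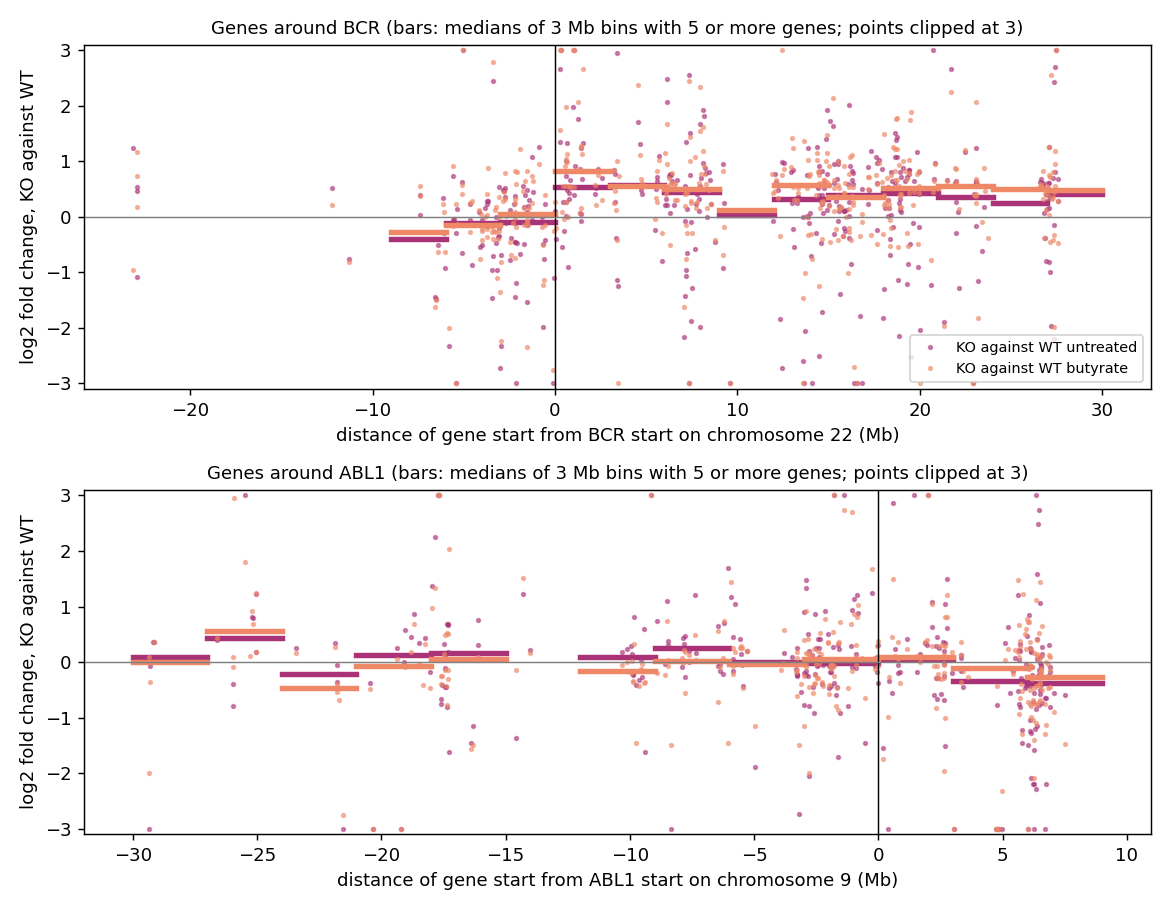
Log2 fold change of KO against WT for each tested gene, untreated and treated, by distance in Mb from the start of BCR on chromosome 22 (top) and of ABL1 on chromosome 9 (bottom), with bars for medians of 3 Mb bins and points clipped at 3. Bars lie at or below 0 before BCR, apart from the last treated one, and above 0 beyond it, while the bars within 3 Mb of ABL1 lie near 0.

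The wider pathway was described with lists of 102 genes in all, of which 90 had enough counts to be tested. Between untreated KO and WT, 14 rose and 13 fell (30% of the tested list genes, beside 22.6% of all genes). Of these 27, 17 passed in each of the 6 fits with 1 library left out. Between treated KO and WT 11 rose and 9 fell (22.2%, beside 19%), and 10 of these 20 passed in each such fit. The median log2 fold change over the tested list genes was -0.03 untreated and 0.07 treated. Summed CPM of 6 mature myeloid markers ran at 13.4 to 18.9 in untreated WT and 21.6 to 86.7 in untreated KO, where MPO was at 0. Over the 12 libraries ITGAM spanned 0.108 to 108 CPM and LYZ 2.41 to 24.7, while the other 4 myeloid markers stayed at or below 4.26, so high sums came from ITGAM. Those of 4 T or NK cell markers ran at 7.61 to 16.3 and 2.11 to 3.23, those of 3 B cell markers, with MS4A1 at 0, at 5.85 to 8.12 and 2.73 to 3.64, and those of 5 stromal or endothelial markers at 10.4 to 16.1 and 2.03 to 6.19. The part of such cells in the list results was not tested.

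Among the kinases related to ABL1 and LYN, 1 rose and 2 fell of 5 tested in untreated KO. YES1, a SRC-family kinase, fell from 198 to 73.4 mean CPM (log2 fold change -1.43, SE 0.299, adjusted p = 0.00433), and SRC fell from 30.5 to 5.95 (-2.35, adjusted p = 0.00463). FYN rose by 0.78 (adjusted p = 0.0262), a call lost without replicate 1 or 3 of untreated WT or replicate 2 of untreated KO. In treated cells YES1 was called (-1.19, adjusted p = 0.0148), though not without replicate 2 of treated WT or replicate 1 or 3 of treated KO. Thus SRC, YES1 and LYN were lower in untreated KO while FYN was higher, and FGR, LCK, BLK and FRK had too few counts to be tested. ABL2, the relative of ABL1, was higher in KO but missed the threshold, by 0.62 untreated (adjusted p = 0.0584) and 0.63 treated (adjusted p = 0.062). With the replicate number as a block it passed in both (adjusted p = 0.0131 and 0.0122).

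Among 17 tested adaptors and docking proteins, 1 rose and 4 fell in untreated KO. GAB3, a relative of GAB2, fell and stood at 61.4 to 79.5 CPM in untreated WT and 3.96 to 12.9 in untreated KO (-3.13, SE 0.426, adjusted p = 0.000226). NCK2, an adaptor to the actin machinery, fell by 1.98 (adjusted p = 0.000505) and GRAP2, a relative of GRB2, fell by 1.79 (adjusted p = 0.00603). DOK2, a docking protein that restrains RAS signalling, rose by 2.52 (adjusted p = 0.00333), with 2.22 to 4.24 CPM in untreated WT and 12.5 to 23.3 in untreated KO. In treated cells 2 rose and 3 fell, among them GAB3 (-2.71), NCK2 (-1.76) and DOK2 (3.12), with adjusted p of 0.000758, 0.00143 and 0.00129. The close relatives CRK (84.1 and 95 mean CPM in untreated WT and KO) and GAB1 (19.8 and 20.8) had no call.

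Genes that MAPK signalling is known to induce moved both ways, with 3 of 15 higher and 3 lower in untreated KO. SPRY1, an inhibitor of RAS signalling, rose and stood at 0.596 to 2.09 CPM in untreated WT and 9.37 to 14.5 in untreated KO (3.23, adjusted p = 0.000265). CCND1, which encodes cyclin D1, fell and stood at 29.8 to 46.6 CPM in untreated WT and 0.143 to 0.903 in untreated KO (-6.07, SE 0.875, adjusted p = 0.000348). ETV5 rose by 1.46 (adjusted p = 0.0146), lost without replicate 1 or 3 of untreated WT or replicate 2 of untreated KO. In treated cells SPRY1 (2.73, adjusted p = 0.000960), ETV5 (1.22, adjusted p = 0.0393) and CCND1 (-2.47, adjusted p = 0.0275) were called in the same direction. The treated ETV5 call was lost in 4 of the 6 fits with 1 library left out and that of CCND1 in 3.

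In the PI3K-AKT pathway 4 of 21 rose and 3 fell in untreated KO. PIK3CG, a catalytic subunit of PI3-kinase, fell by 2.62 (SE 0.348, adjusted p = 0.000195). INPP5D, the phosphatase SHIP1 that removes a phosphate from the PI3-kinase product, fell and stood at 10.9 to 19.8 CPM in WT and 0.0535 to 1.27 in KO (-4.70, adjusted p = 0.000344). PIK3AP1, an adaptor for PI3-kinase, rose by 3.49 (adjusted p = 0.00140), and RICTOR, a part of mTOR complex 2, fell by 0.73 (adjusted p = 0.0103). In treated cells 2 rose and 2 fell, among them PIK3AP1 (2.46) and RICTOR (-1.14), with adjusted p of 0.00808 and 0.000834. PIK3CG fell there by 1.13 (adjusted p = 0.0317), a call lost without replicate 2 or 3 of treated WT or replicate 1 or 3 of treated KO.

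Of the 8 tested phosphatases and ubiquitin ligases that restrain such kinases, 2 rose and 1 fell in untreated KO. UBASH3B, a phosphatase that binds CBL, had 0 counts in all 3 untreated WT libraries and 27.3 to 40.4 CPM in untreated KO, at least 238-fold higher against a limit of 3 counts per library (adjusted p = 2.57e-05). PTPRC, the receptor phosphatase CD45 that opens SRC-family kinases, fell and stood at 66.8 to 92.7 CPM in WT and 0.468 to 0.666 in KO (-7.07, SE 0.872, adjusted p = 0.000109). UBASH3A, related to UBASH3B, rose by 1.68 (adjusted p = 0.00500). All 3 were called in treated cells in the same direction. CBLB, the relative of CBL, stood at 14.9 and 15.3 mean CPM in untreated WT and KO and was not called.

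Of 8 tested genes known to be induced by STAT5, which the fusion kinase activates, 2 rose in untreated KO. SOCS2 rose and stood at 88.7 to 176 CPM in WT and 286 to 364 in KO (1.30, SE 0.237, adjusted p = 0.00176). CISH rose by 1.38 (adjusted p = 0.0222), lost without replicate 2 or 3 of either untreated group. In treated cells SOCS2 (1.47, adjusted p = 0.00107) was called in each fit with 1 library left out. CISH rose there by 1.38 (adjusted p = 0.0259) and PIM2, a survival kinase, fell by 1.18 (adjusted p = 0.0472), and each of these calls was lost in 5 of the 6 such fits. The median of the list was -0.18 untreated, with 3 genes higher and 5 lower, and 0.38 treated, with 6 higher and 2 lower.

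**Figure D5:**
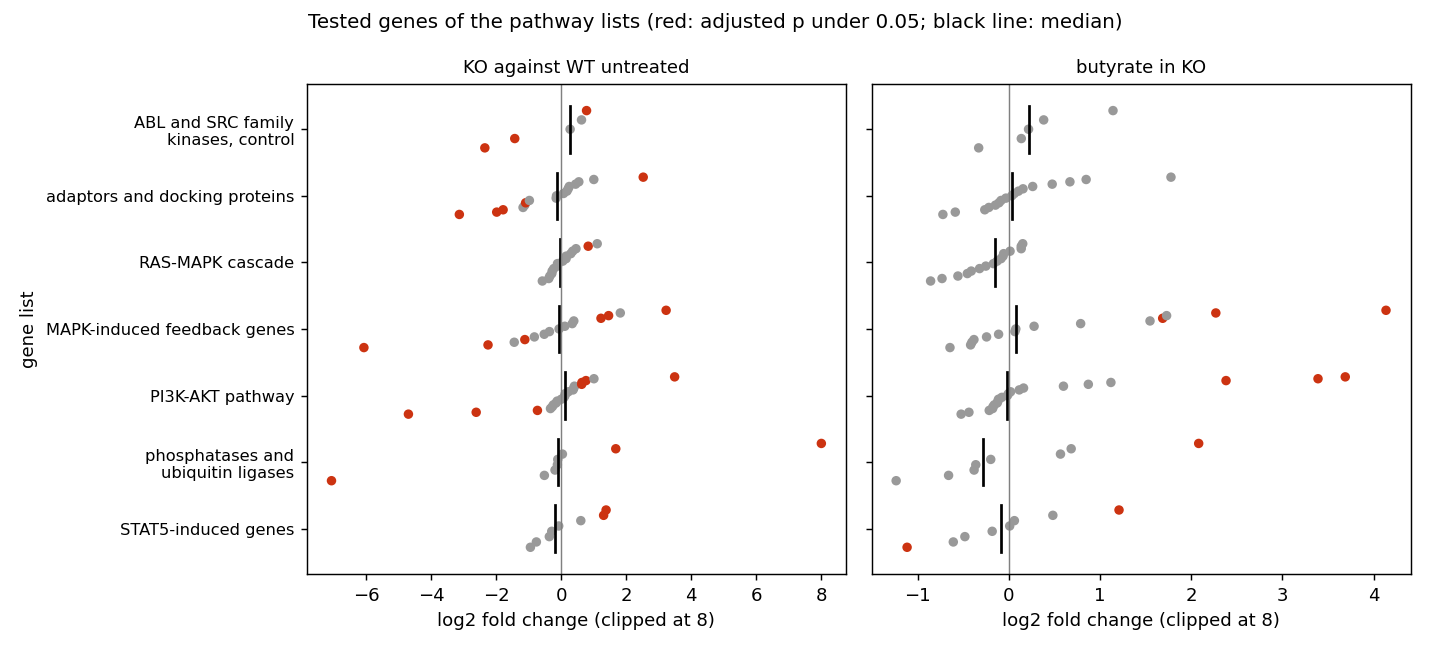
Log2 fold change of each tested gene of the 7 pathway lists, for untreated KO against WT (left) and for butyrate in KO (right), with red for an adjusted p under 0.05 and a black line at the list's median. Values above 8 are drawn at 8. Medians on the left lie between -0.18 and 0.27 while single genes such as CCND1 (-6.07) and PTPRC (-7.07) lie far out.

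With butyrate, 1 list gene rose and 1 fell in WT (2.22% of 90, beside 2.35%), and 8 rose and 1 fell in KO (10%, beside 3.4%). Without the 4 libraries numbered 1 these counts were 17 and 18. PIK3AP1 rose in both genotypes, by 3.41 (adjusted p = 0.0168) in WT and 2.38 (adjusted p = 0.0360) in KO. SOCS2 fell in both, by 1.28 (adjusted p = 0.0190) and 1.12 (adjusted p = 0.0278). In KO, INPP5D rose by 3.69 (SE 0.654, adjusted p = 0.0132), CCND1 by 4.14 (adjusted p = 0.0224), DUSP5, a phosphatase of ERK, by 2.27 (adjusted p = 0.00995), and PTPN6, the phosphatase SHP-1, by 2.08 (adjusted p = 0.0281). IER3 and SOCS3 rose as well (1.69 and 1.21). None of these butyrate calls passed in every fit with 1 library left out. All of them were lost without replicate 2 of the untreated or of the treated libraries of their genotype, with adjusted p up to 0.209. In treated cells the summed CPM of the mature myeloid markers ran at 20.8 to 32.5 in WT and 63.5 to 134 in KO, and that of the stromal or endothelial markers at 48.7 to 117 and 71.7 to 160. The latter sum came mostly from COL1A1 (1.62 to 154 CPM over the 12 libraries), while the other 4 markers of that list stayed at or below 11.6. Their part was not tested. The difference of the butyrate effect between KO and WT passed for 0 of the 90 list genes in edgeR, with 7 at an unadjusted p under 0.05, and for 2 in DESeq2.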

How the data were processed

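RNA sequencing covered 4 groups of 3 K562 libraries. For these libraries the authors deposited read counts by gene symbol, taken as raw because the values were whole and library sums differed. FastQC 0.12.1, STAR 2.7.11b and hg38 are named per the submitters' processing notes, while the counting tool, annotation and use of strand are not given in the sources used here. Groups came from the sample titles. All columns were used. The model used edgeR 4.0.16 under R 4.3.3 (filterByExpr with a minimum count of 10, TMM, a mean per group over all 12 libraries, biological coefficient of variation 0.384, quasi-likelihood F-test, Benjamini-Hochberg over 15805 genes, threshold 0.05), and the scripts were tested on simulated data. Depth ran from 19963594 to 30348538 counts, and 3 counts were taken as the limit of detection. Limits set from counts cover counting error only. The intervals of log2 fold changes come from the fit, so they also include the spread between these libraries. DESeq2 1.42.0, other scalings and filters, a replicate block and left-out libraries served as alternatives. The package limma 3.58.1 was loaded with edgeR and gave no alternative fit.

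The members and lists were chosen with earlier results of these data known. Named genes are SLC48A1, the members, up to 4 called genes per list and comparison in order of adjusted p, the 3 genes of highest Pearson correlation with BCR, ABL1, NUP214 and LYN, and neighbours of BCR and ABL1. Beside these, CRK, GAB1, CBLB and ABL2 were named as relatives of members, after their values were seen. Some list genes that the rule would name are not reported here. Libraries with the same replicate number in their titles were alike: their deviations from group means correlated at 0.147 to 0.595, every such pair above 0.1. Differently numbered pairs reached 0.186 for butyrate in WT, 0.123 in KO, 0.0692 between untreated and 0.343 between treated genotypes. In the last comparison the lowest same-numbered pair was at 0.315, so the ranges overlapped there. The main fit did not use the replicate number, which entered only as the block. Exon positions came from GENCODE v29 and promoters from RefSeq, both on GRCh38.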

Additional observations from a re-analysis of the deposited data

How the results depend on the processing

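The LYN call between untreated genotypes held in every alternative run on all libraries and without the libraries numbered 1. It was lost in 5 of the 6 fits with 1 library left out, so the number of members called then ranged from 0 to 1. Of 675 alternative values for single members, 606 kept their direction and side of the threshold, 5 lost the call (all for LYN), 4 gained one and 60 changed sign without passing. The cause of these changes was not tested. Depth limits what can be read of genes near 3 counts per library, which is 0.0953 to 0.162 CPM.

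The number of genes called for butyrate in WT (372) was 1331 in DESeq2, 63 with only the 2 groups, 1884 without the libraries numbered 1 and 1361 with the replicate block, and it ranged from 43 to 1243 with 1 library left out. For butyrate in KO (537) it was 1538 in DESeq2, 304 with at least 10 counts in every library, 2164 without the libraries numbered 1 and 1852 with the replicate block, with a range of 48 to 833. Between untreated genotypes (3574) it was 2334 with at least 10 counts in every library. Between treated genotypes (3009) it was 1947 with that filter, 1802 with only the 2 groups and 4612 with the replicate block. For the difference of the butyrate effect (0) it was 86 in DESeq2, 2 without a filter, 1 with at least 10 counts in every library, 9 without the libraries numbered 1 and 3 with the replicate block, with a range of 0 to 2. Members called between untreated genotypes rose from 1 to 2 with the replicate block and with only the 2 groups, and between treated genotypes from 0 to 1 with the replicate block. The block changed no other call of a member. Pathway list genes called for butyrate in WT (2) were 12 in DESeq2, 11 with the block and 17 without the libraries numbered 1. For butyrate in KO (9) they were 18 without those libraries. These list alternatives were chosen after seeing the data.

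Without the libraries numbered 1, log2 fold changes that turned sign were, for butyrate in WT, -0.26 for BCR, -0.12 for ABL1, -0.15 for NUP214 and 0.16 for CBL. For butyrate in KO they were -0.17 for CRKL, -0.10 for CBL and -0.0088 for LYN. CBL was 0.087 between untreated and -0.18 between treated genotypes, ABL1 0.27 between treated genotypes, and CBL -0.26 for the difference of the butyrate effect. CBL for butyrate in WT, near 0 throughout, was 0.0061 in DESeq2 and with its size factors, 0.045 with library size alone, 0.063 with at least 10 counts in every library and 0.0048 with only the 2 groups. With library size alone, ABL1 between treated genotypes was 0.073 and GAB2 for the difference of the butyrate effect 0.042. With 1 library left out, values that changed sign for butyrate in WT ranged from -0.25 to 0.35 for BCR, -0.29 to 0.20 for ABL1, -0.18 to 0.14 for NUP214, -0.041 to 0.41 for SHC1 and -0.30 to 0.22 for CBL. For butyrate in KO they ranged from -0.051 to 0.17 for CRKL, -0.12 to 0.36 for CBL and -0.058 to 0.32 for LYN. Between untreated genotypes they ranged from -0.027 to 0.25 for BCR and -0.34 to 0.16 for CBL. Between treated genotypes they ranged from -0.011 to 0.60 for BCR, -0.26 to 0.23 for ABL1, -0.11 to 0.25 for CRKL, -0.067 to 0.10 for GRB2 and -0.19 to 0.32 for CBL. For the difference of the butyrate effect they ranged from -0.094 to 0.52 for BCR, -0.042 to 0.29 for NUP214, -0.33 to 0.057 for CRKL, -0.92 to 0.24 for GAB2, -0.076 to 0.49 for SHC1 and -0.12 to 0.39 for CBL.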
